A study of Homo sapiens with 4 samples.

Results

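Keratins are the intermediate filament proteins of epithelial cells. The keratin genes were taken as every gene name in the scanner files made of KRT, a number and at most 1 letter from A to C, so that names alone chose them and no measured value did. This gave 55 genes, measured by 64 probes, out of 43317 gene names on the array. All 55 names are current RefSeq symbols of the assembly GRCh38.p14. Each keratin pairs with a partner of the other class, type I with type II, to build a filament. Simple epithelia use KRT8 and KRT18, often with KRT7, KRT19 or KRT20, while basal, suprabasal, root sheath and hair cells each use their own pairs. Most type I genes lie in a cluster on chromosome 17 and the type II genes in a cluster on chromosome 12, with KRT18, a type I gene, at the edge of the second. Pathologists use KRT7 and KRT20 to tell lung from colorectal carcinoma, since lung adenocarcinoma is usually positive for KRT7 and colorectal carcinoma for KRT20.

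The data come from a study of PSAT1 and vesicle release. HCT116, a colorectal cancer line, and A549, a lung cancer line, were each transfected with the microRNA miR-891b or with the negative control NC1 by Dharmafect1, and 100 ng of total RNA was measured on 1-colour arrays. Each line thus gave an NC1 group and a miR-891b group, and these 4 groups held 1 array each. A difference between single arrays has no replicate check and no p-value. Calls rest on size alone, with a threshold of 2-fold, where both arrays had the probe well above background. Levels are log2 signals minus the array's 75th percentile, and differences are on the same log2 scale.

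Each line had a slide and a scan day of its own, so line, slide and scan day cannot be told apart. Of the gene spots, 10.5% of the HCT116 miR-891b array lay in areas of stray signal, against 2.20% or less on the others. The only probes of KRT10, KRT81 and KRT37 lay in such areas there, and no other probe of a keratin well above background on any array did so. Feature Extraction's own error model puts the error of a difference between 2 spots at about 0.20 for bright probes. Spots printed repeatedly gave a median SD of the difference of 0.061 in HCT116 and 0.071 in A549. The 5 markers of the A549 line were well above background on both A549 arrays and higher there, and EPCAM, an epithelial adhesion protein, was higher in HCT116. Of 6 lung alveolar markers, 3 were well above background on each A549 array, and NKX2-1, the lung lineage factor, was so in HCT116 only. Of 6 colon markers, 5 were well above background in A549 and 2 in HCT116. The 2 measured in both lines (CDX1 and CDX2) were lower in A549 with NC1, and only 1 of them was lower there with miR-891b. The limma model described below called 3 of 5 tested colon markers higher in A549 and 1 lower (15.5% and 16.4% of all genes). Of 8 fibroblast markers, 5 were well above background on at least 1 array, and COL1A2, COL3A1 and DCN on none. The summed level of that list was 1.41 and 1.15 in HCT116 and 2.10 and 3.41 in A549, NC1 first, and its part in any keratin difference was not tested.

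The transfected microRNA and the probes on which the results below turn are shown first. The mature sequence of miR-891b, from RefSeq (GRCh38.p14, chrX:146001100-146001121, minus strand), has its seed, bases 2 to 8, in capitals.
miR-891b: uGCAACUUaccugagucauuga
The seed pairs with the 7-mer AAGTTGC. That 7-mer was in 0 of the 64 keratin probes and in 229 of 58201 gene probes (0.393%), searched on the probe strand alone. A probe samples only 60 bases of its transcript, so the 7-mer elsewhere in keratin transcripts was not analysed here.

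KRT83, KRT18 and KRT8 were each measured by more than 1 probe. Probe sequences from the scanner files follow for some of them, since probes of these genes did not always give the same difference. All are printed in lower case, with coordinates on hg19.
KRT83 probe starting at base 884 of its transcript (chr12:52710677-52710736, minus strand): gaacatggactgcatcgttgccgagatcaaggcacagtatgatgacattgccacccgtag
KRT18 probe starting at base 999 (chr12:53345577-53345636, plus strand): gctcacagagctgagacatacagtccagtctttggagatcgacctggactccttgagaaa
KRT18 probe starting at base 1276 (chr12:53346116-53346554, plus strand, across an intron): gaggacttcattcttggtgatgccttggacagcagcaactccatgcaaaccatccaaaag
KRT8 probe starting at base 644 (chr12:53294461-53294995, minus strand, across an intron): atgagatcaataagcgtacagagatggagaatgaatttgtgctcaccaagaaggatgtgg
KRT8 probe starting at base 350 of a non-coding transcript variant (chr12:53343241-53343300, minus strand): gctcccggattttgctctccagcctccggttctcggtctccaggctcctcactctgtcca
The last of these lies 48.2 kb from the KRT8 probe at base 644, 2.28 kb from the nearest KRT18 probe, and on the strand opposite to KRT18.

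Of the 55 keratin genes, 28 were well above background on at least 1 array and 21 on all 4. The number was 25 on HCT116 NC1, 24 on HCT116 miR-891b and 25 on each A549 array. That is 43.6% to 45.5% of the keratins, against 46.6% to 51.8% of all genes. The 27 genes not well above background on any array were KRT1, KRT2, KRT5, KRT6A, KRT6B, KRT6C, KRT12, KRT14, KRT16, KRT17, KRT24, KRT25, KRT27, KRT28, KRT33B, KRT35, KRT36, KRT38, KRT40, KRT71, KRT72, KRT74, KRT75, KRT76, KRT77, KRT82 and KRT84. They include the basal pair KRT5 and KRT14 and all 5 wound keratins (KRT6A, KRT6B, KRT6C, KRT16 and KRT17), which keratinocytes switch on after injury. They also include 7 of the 9 root sheath genes. All 7 simple epithelial keratins were well above background in HCT116, and 6 of them were in A549, where KRT23 was not.

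**Figure D1:**
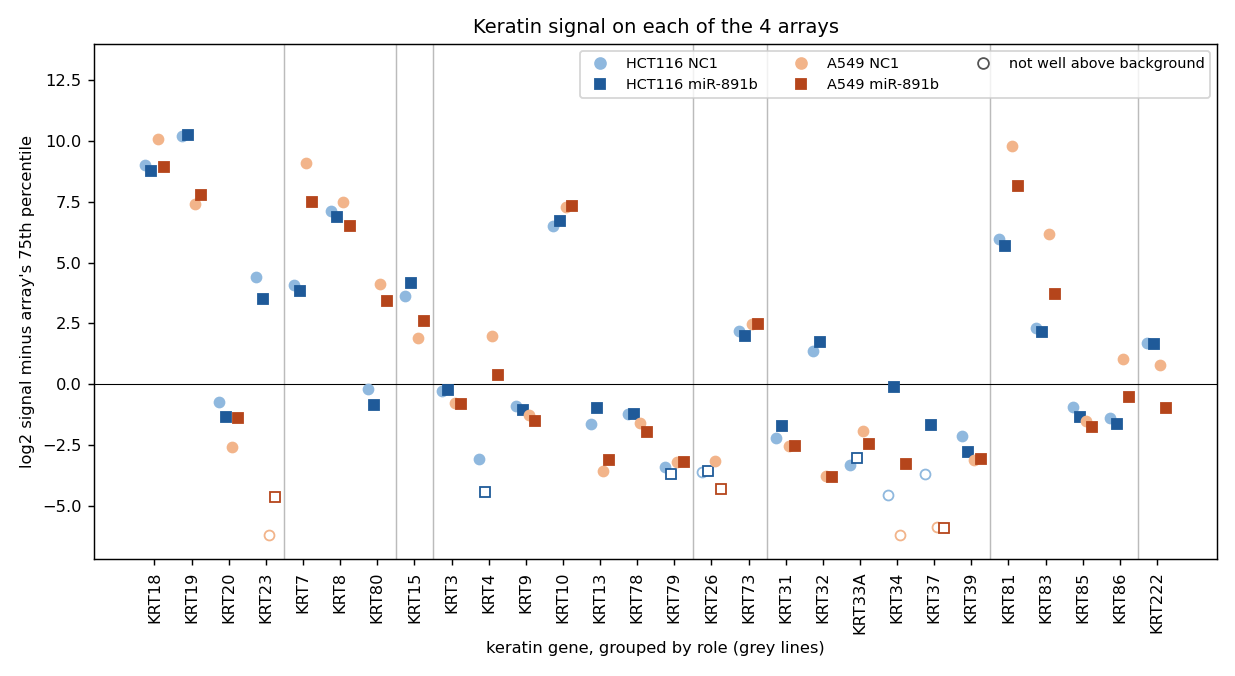
Log2 signal minus the array's 75th percentile for the 28 keratin genes well above background on at least 1 array, with 1 point per array and groups of similar role separated by grey lines. Open symbols are values not well above background. KRT7, KRT80, KRT81 and KRT83 lie higher on both A549 arrays than on both HCT116 arrays, and KRT19, KRT32 and KRT23 lie lower. The share of all genes that lie apart in this way was not computed, and no weight is put on it.

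The first comparison asked how the lines differ in their keratins. With NC1, 8 of 24 keratins measured in both lines were at least 2-fold higher in A549, where 11.1% of all genes were, and 5 were at least 2-fold lower, where 16.2% of all genes were. The higher ones were KRT4, KRT7, KRT18, KRT33A, KRT80, KRT81, KRT83 and KRT86, and the lower ones were KRT13, KRT15, KRT19, KRT20 and KRT32. After normexp background correction with quantile normalization, KRT33A (0.22), KRT13 (-0.34) and KRT20 (-0.54) were no longer past 2-fold. With miR-891b, 5 of 22 were at least 2-fold higher, where 11.4% of all genes were, and 6 were at least 2-fold lower, where 20.7% were. An additive limma model over all 4 arrays, with line and transfection as terms, took the 2 arrays of a line as its only repeats. It has 1 residual degree of freedom per gene, so its p-values measure the departure from additivity and not a spread between cultures. Benjamini-Hochberg adjustment ran over 22713 genes, of which 26 were keratins. At an adjusted p under 0.05, 6 keratins were higher in A549 (15.5% of all genes were) and 6 were lower (16.4% of all genes were). Of these 12 calls, KRT23, KRT34 and KRT4 rest partly on values below background and are described by bounds where they have one.

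Among the simple type II keratins, KRT7 lines ducts and glands, and KRT80 is a type II keratin found in many epithelia. KRT7 was at 4.09 and 3.83 in HCT116 and at 9.11 and 7.49 in A549, NC1 first. The A549 levels lay above both HCT116 levels, by 5.02 on the NC1 arrays, or 32.6-fold. The limma line difference was 4.34 ± 0.41 (SE, adjusted p = 0.0043). KRT80 was at -0.22 and -0.84 in HCT116 and at 4.12 and 3.43 in A549, NC1 first. Here too the lines did not overlap, with a limma line difference of 4.30 ± 0.23 (SE, adjusted p = 0.0013). The share of all genes whose A549 levels lie apart from both HCT116 levels was not computed. No weight is put on such separation here or below. KRT8, the type II partner of KRT18, was at 7.13 and 6.89 in HCT116 and at 7.49 and 6.53 in A549. Its lines overlapped, and its limma adjusted p was 0.997.

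The simple type I keratins differed between the lines in both directions. KRT19, the smallest keratin, was at 10.19 and 10.26 in HCT116 and at 7.42 and 7.80 in A549, so that both A549 levels were lower. The limma line difference was -2.62 ± 0.24 (SE, adjusted p = 0.0043). KRT23 was measured by 2 probes, and both were well above background on the HCT116 arrays alone. Its brighter probe was at 4.41 and 3.49 in HCT116 and, below background, at -6.21 and -4.63 in A549. With NC1 it was at least 331-fold higher in HCT116, with the dimmest A549 probe still above background as the bound, and the other probe gave at least 27.2-fold.

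KRT18 and KRT20 were past 2-fold between the NC1 arrays, and neither passed the limma test. KRT18 was at 9.0 and 8.79 in HCT116 and at 10.08 and 8.94 in A549. Its NC1 difference was 1.08, against 0.16 on the miR-891b arrays (limma adjusted p = 0.210), and it passed the limma test after quantile normalization alone. KRT20, a keratin of the gut lining, was at -0.76 and -1.35 in HCT116 and at -2.59 and -1.41 in A549. Its A549 minus HCT116 difference was -1.83 with NC1 and -0.06 with miR-891b (limma adjusted p = 0.208). KRT20 was thus lowest on the A549 NC1 array, and the A549 miR-891b level matched the HCT116 miR-891b level within the spot error.

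Keratins of stratified epithelia were split. KRT4 and KRT13 pair in the upper layers of mucosa such as the oesophagus. KRT4 was at -3.07 on HCT116 NC1, not well above background on HCT116 miR-891b (-4.46), and at 1.97 and 0.39 in A549. It was higher in A549, by 5.03 with NC1 (2.22 after normexp with quantile normalization). With miR-891b it was 28.9-fold higher, which is no lower bound, since the HCT116 level was not well above background. Its partner KRT13 went the other way, at -1.62 and -1.0 in HCT116 and at -3.57 and -3.13 in A549 (-2.04 ± 0.24, SE, limma adjusted p = 0.0074). KRT15, found in basal cells, was at 3.64 and 4.18 in HCT116 and at 1.90 and 2.60 in A549 (-1.66 ± 0.23, SE, limma adjusted p = 0.012). Both lines had signal for KRT10, the main type I keratin of the suprabasal epidermis, at 6.51 and 6.72 in HCT116 and 7.31 and 7.34 in A549. Its limma adjusted p was 0.088, and it passed after quantile normalization with or without normexp. KRT13 did not pass after normexp with quantile normalization. KRT3, KRT9, KRT78 and KRT79 had NC1 differences from -0.49 to 0.19, and none passed the limma test.

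Of the 4 measured type II hair keratins, 3 were at least 2-fold higher in A549 with NC1, where 11.1% of all genes were. The limma model also called 3 higher, where it called 15.5% of all genes. These keratins form the hard fibre of hair and nail, and some carcinoma lines transcribe them. KRT81 was at 5.98 and 5.70 in HCT116 and at 9.78 and 8.14 in A549. KRT83, by its brighter probe, was at 2.31 and 2.16 in HCT116 and at 6.18 and 3.71 in A549. KRT86 was at -1.40 and -1.65 in HCT116 and at 1.05 and -0.53 in A549. In all 3 genes both A549 levels exceeded both HCT116 levels, a separation not counted over all genes. The limma line differences were 3.12 ± 0.40 for KRT81 (SE, adjusted p = 0.0099), 2.71 ± 0.61 for KRT83 (SE, adjusted p = 0.037) and 1.78 ± 0.40 for KRT86 (SE, adjusted p = 0.037). KRT83 and KRT86 did not pass after normexp background correction with quantile normalization, nor did KRT83 with the authors' values. KRT85 showed no such difference, at -0.96 and -1.35 in HCT116 and -1.53 and -1.76 in A549 (limma adjusted p = 0.183). KRT81, KRT83 and KRT86 are close copies of one another, so their probes may share signal, and these 3 genes are not 3 independent observations.

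Of the type I hair keratins, KRT32, a keratin of the hair cuticle, was higher in HCT116. It was at 1.34 and 1.71 in HCT116 and at -3.79 and -3.83 in A549 (-5.33 ± 0.25, SE, limma adjusted p = 0.0011). Its NC1 difference was -5.13, against -1.95 after normexp with quantile normalization. KRT31 and KRT39 were well above background on all 4 arrays, with NC1 differences of -0.33 and -0.98. KRT33A differed by 1.37 with NC1 and was not well above background on HCT116 miR-891b. Neither of the first 2 passed the limma test, and KRT33A had an adjusted p of 0.075. KRT222, a keratin-like gene of the chromosome 17 cluster, was at 1.67 and 1.64 in HCT116 and at 0.79 and -0.98 in A549 (limma adjusted p = 0.059). The root sheath gene KRT73 was at 2.20 and 1.97 in HCT116 and 2.46 and 2.47 in A549. KRT26, another root sheath gene, was well above background on A549 NC1 alone.

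The second comparison set miR-891b against NC1 in A549. Of 24 keratins measured there, miR-891b was 2-fold or more below NC1 for 7, where 5.57% of all genes were, and 1 was at least 2-fold higher, where 4.01% were. The lower ones were KRT4, KRT7, KRT18, KRT81, KRT83, KRT86 and KRT222, and the higher one was KRT20. The median change was -0.24 over the measured keratins and -0.06 over 21336 measured genes. None of these differences has a replicate check. The comparison shares the A549 NC1 array with the NC1 comparison of the lines, so the levels are given side by side above and no relation between the 2 sets of differences is drawn.

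The lowest difference was that of KRT83, whose brighter probe went from 6.18 with NC1 to 3.71 with miR-891b, a difference of -2.47 or 5.53-fold. The other type II hair keratins past 2-fold were KRT81, from 9.78 to 8.14 (-1.64), and KRT86, from 1.05 to -0.53 (-1.58). KRT85, the remaining measured one, differed by -0.23. In the simple type II group, KRT7 went from 9.11 to 7.49, a difference of -1.62 or 3.07-fold. KRT8 and KRT80 were also lower, by differences of -0.97 and -0.69, which did not reach 2-fold. The KRT8 difference was -0.56 after quantile normalization and -0.59 after normexp with quantile normalization. All 3 simple type II keratins and all 4 measured type II hair keratins thus had lower signal with miR-891b, where 55.6% of all measured genes did. The difference of KRT85 was about the size of its spot error (0.23). KRT81, KRT83 and KRT86 may share signal and do not count as independent observations.

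KRT18 and KRT8 form the filament pair of simple epithelia, and both were lower. KRT18 went from 10.08 to 8.94, a difference of -1.14 or 2.20-fold. KRT19, which can replace KRT18 in that pair, went from 7.42 to 7.80, a difference of 0.39. That difference was 0.93 after quantile normalization and 0.91 after normexp with quantile normalization. KRT20 went from -2.59 to -1.41, a difference of 1.18 or 2.26-fold. After normexp background correction with quantile normalization the KRT20 difference was 0.30 and no keratin was 2-fold higher. In the same setting KRT18 (-0.88), KRT86 and KRT222 (both -0.89) were no longer past 2-fold, and KRT4, KRT7, KRT81 and KRT83 still were. Quantile normalization alone also brought KRT18 under 2-fold, at -0.90.

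KRT4 went from 1.97 to 0.39, a difference of -1.58 or 2.98-fold, and KRT222 from 0.79 to -0.98, a difference of -1.76 or 3.39-fold. KRT13 and KRT15 were higher with miR-891b, by 0.44 and 0.70, short of 2-fold. KRT10, KRT31, KRT32, KRT39, KRT73, KRT79 and KRT3 differed by no more than 0.05 in size. For KRT10 this depended on the processing, with 0.50 after quantile normalization and 0.51 after normexp with quantile normalization. KRT9, KRT78, KRT85 and KRT33A had differences of -0.24, -0.36, -0.23 and -0.50.

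**Figure D2:**
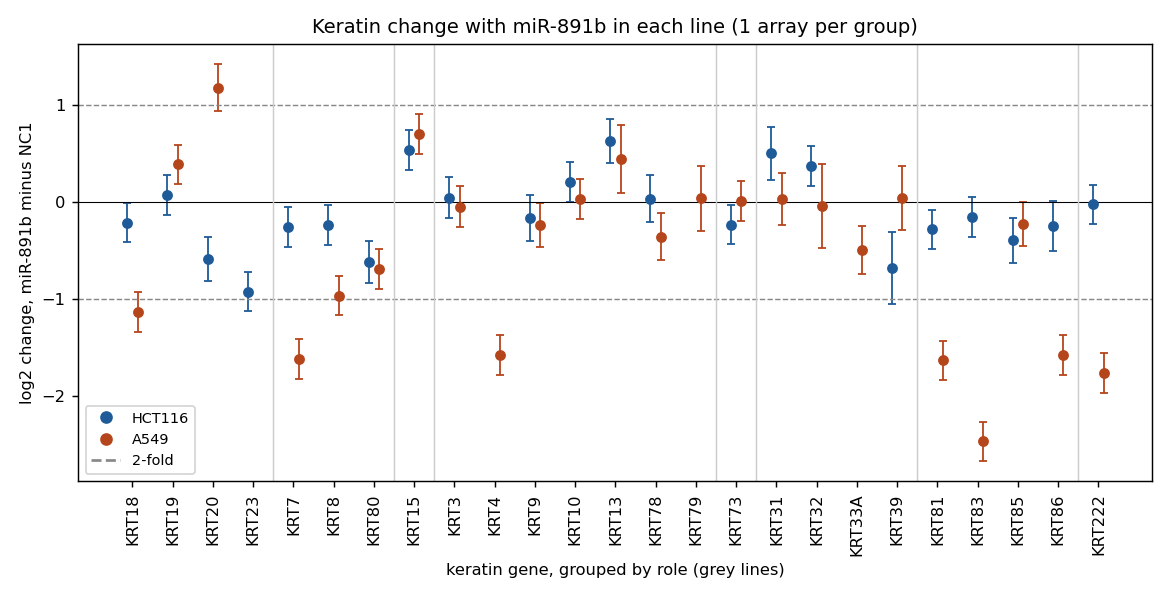
Log2 difference, miR-891b minus NC1, for each keratin well above background on both arrays of a line, HCT116 in blue and A549 in orange. Bars are the error of 1 spot pair from Feature Extraction's error model, not a replicate error, and dashed lines mark 2-fold. In A549, 7 keratins lie below the lower line and KRT20 above the upper one, while every HCT116 value lies between the lines.

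In HCT116 none of 22 measured keratins reached 2-fold in either direction, where 0.843% of all genes were at least 2-fold lower and 1.16% at least 2-fold higher. The differences ran from -0.93 to 0.63, with a median of -0.19 against -0.04 over 19107 measured genes. KRT23 had the lowest difference, from 4.41 to 3.49 (-0.93), and its other probe went from 0.81 to -0.14 (-0.94). KRT39 (-0.68), KRT80 (-0.62) and KRT20 (-0.59) followed. KRT4, past 2-fold lower in A549, was not well above background on HCT116 miR-891b, and its HCT116 difference was -1.40 (spot error 0.92). Of the keratins that were past 2-fold lower in A549, the other 6 were measured in HCT116, and none of them differed by more than 0.30 in size there. KRT7 differed by -0.26, KRT18 by -0.22, KRT81 by -0.28, KRT83 by -0.16, KRT86 by -0.25 and KRT222 by -0.03. KRT13 (0.63), KRT15 (0.53) and KRT31 (0.50) had the highest differences. Whether the lines differ in their response was not tested, since each response rests on 1 array per group.

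Over the 21 keratins well above background on all 4 arrays, 10 were lower with miR-891b in both lines and 5 were higher in both. A further 3 were lower in HCT116 and higher in A549, and 3 were the reverse. Taken 1 line at a time, 55.5% of all measured genes were below 0 in HCT116 and 55.6% in A549. The share of all genes lower or higher in both lines was not computed, so these joint counts have no base rate here. Some of these signs lie inside the spot error, such as those of KRT222 in HCT116 (-0.03) and KRT73 in A549 (0.01). None was past 2-fold in both lines. The additive limma model called 0 of 26 keratins for transfection and 0 of 22713 genes (0.0% in each direction). At an unadjusted limma p under 0.05 there were 3 keratins (KRT4, KRT34 and KRT80) and 1214 genes. KRT34 was below background on both NC1 arrays and KRT4 on HCT116 miR-891b, so their p-values rest partly on unmeasured levels. The lowest adjusted p among the keratins was 0.793.

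KRT34, a type I keratin of the hair cortex, was the one keratin that went from below background with NC1 to well above background with miR-891b in both lines. It was at -4.57 and -0.12 in HCT116 and at -6.23 and -3.31 in A549, NC1 first. Against the NC1 array's bound, the higher of its own signal and the dimmest probe still above background, it was at least 14.4-fold higher with miR-891b in HCT116 and at least 1.56-fold higher in A549. Its spot lay outside the areas of stray signal, where 1.09% of nearby dim spots were bright on HCT116 miR-891b and 1.62% on A549 miR-891b.

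Other changes of detection were smaller or less sure. KRT37, also a hair keratin, was well above background on HCT116 miR-891b alone, at -1.67 against -3.68 with NC1, a 4.04-fold difference. Its spot lay in an area of that array where 13.4% of nearby dim spots were bright. KRT4 was well above background in HCT116 with NC1 and not with miR-891b, with a difference of -1.40 (spot error 0.92). KRT26 was well above background in A549 with NC1 and not with miR-891b, with a difference of -1.18 (spot error 0.52). KRT79 was well above background on HCT116 NC1 and not on HCT116 miR-891b, and its difference of -0.30 lay within the spot error of 0.58. For KRT37, KRT4, KRT26 and KRT79 the dimmer level is the spot's own signal, not well above background. Their differences are therefore no lower bounds.

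Genes with more than 1 probe allowed a check within the array. The KRT83 probe at base 884, shown above, was not well above background on either HCT116 array, and went from 4.11 to 1.15 in A549, a difference of -2.96. The brighter KRT83 probe was well above background on all 4 arrays and differed by -2.47. With NC1, the first gave a KRT83 level at least 270-fold higher in A549 and the second 14.6-fold. The size of the line difference of KRT83 therefore depends on the probe, while its direction does not. Signal of a close copy on the second probe was not tested.

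For KRT18, the probe at base 999 went from 8.28 to 6.81 in A549 (-1.46) and the one at base 1276 from 10.08 to 8.94 (-1.14). Both KRT8 probes on the KRT8 messenger RNA differed by -0.97 in A549, and by -0.24 and -0.39 in HCT116. The KRT8 probe on the strand opposite to KRT18 gave smaller differences, with 0.11 in HCT116 and -0.22 in A549. The 2 KRT18 probes and the 2 KRT8 messenger probes thus agree in direction in A549. The third KRT8 probe reads another transcript. In HCT116 the KRT18 probes differed by -0.11 (base 999) and -0.22 (base 1276). The spot error of these 2 differences and of the third KRT8 probe's was 0.20, so directions in HCT116 are not compared. KRT8 and KRT18 have many processed pseudogenes, and signal from those could not be told apart here.

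**Figure D3:**
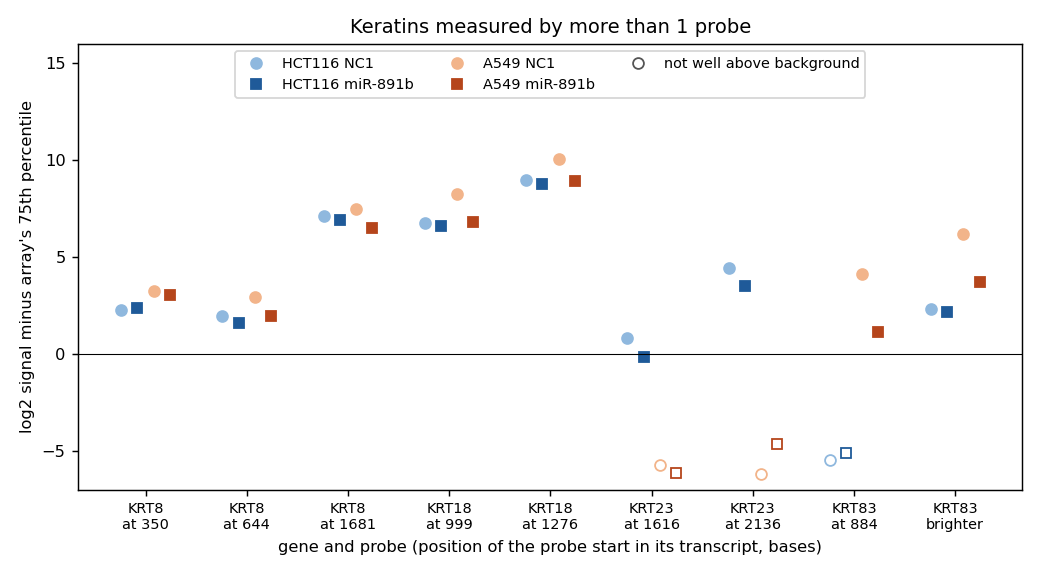
Log2 signal minus the array's 75th percentile of KRT8, KRT18, KRT23 and KRT83 by probe, labelled by the base at which the probe starts in its transcript (the brighter KRT83 probe is labelled as such), with 1 point per array and open symbols for values not well above background. The KRT83 probe at base 884 is below background on both HCT116 arrays, while the brighter KRT83 probe is not.

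Position along the chromosome was not used to choose the genes. By their probes, 27 of the keratins lie on chromosome 12 and 28 on chromosome 17. With miR-891b in A549, 6 of 13 measured keratins on chromosome 12 were lower by 2-fold or more and none was 2-fold higher, with a median of -0.97, where 5.57% of all genes were lower and 4.01% higher. On chromosome 17 the counts were 1 lower and 1 higher of 11, with a median of 0.03. In HCT116 the medians were -0.24 on chromosome 12 and 0.07 on chromosome 17. Between the NC1 arrays, 7 of 13 keratins on chromosome 12 were called higher in A549 and none lower, against 1 and 5 of 11 on chromosome 17 and 11.1% and 16.2% of all genes. The close copies KRT81, KRT83 and KRT86, which may share signal, are in both chromosome 12 counts of called genes.

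KRT80, KRT7, KRT81, KRT86 and KRT83, in that order on chromosome 12, fall within 146 kb. Their A549 minus HCT116 differences with NC1 ran from 2.44 to 5.02, and those with miR-891b from 1.11 to 4.27. Their miR-891b minus NC1 differences in A549 ran from -2.47 to -0.69. The first and the last of these share the A549 NC1 array, so that a high value there moves both. The stretch was marked off with the values known, so the ranges describe it and test nothing. KRT81, KRT83 and KRT86 may share signal. KRT85, the next keratin, was past 2-fold in none of these comparisons, and the keratins beyond it up to KRT73 (KRT84, KRT82, KRT75, KRT6B, KRT6C, KRT6A, KRT5, KRT71, KRT74 and KRT72) were not well above background on any array. Other transcripts between KRT80 and KRT83 were looked at after these values were seen. Of 3 LINC00592 probes, the 1 well above background on all 4 arrays was at -3.40 and -2.77 in HCT116 and at 0.16 and -2.44 in A549, NC1 first, and its highest level was that on A549 NC1. The lnc-KRT83-1 probe was at 0.20 and 0.24 in HCT116 and at -0.71 and -0.37 in A549, with no 2-fold difference by miR-891b in either line. Of 3 C12orf80 probes, 1 was at -0.58 and -0.61 in A549, and another was well above background on A549 NC1 alone, at least 2.46-fold lower with miR-891b. Probes of the same stretch thus did not all move alike.

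**Figure D4:**
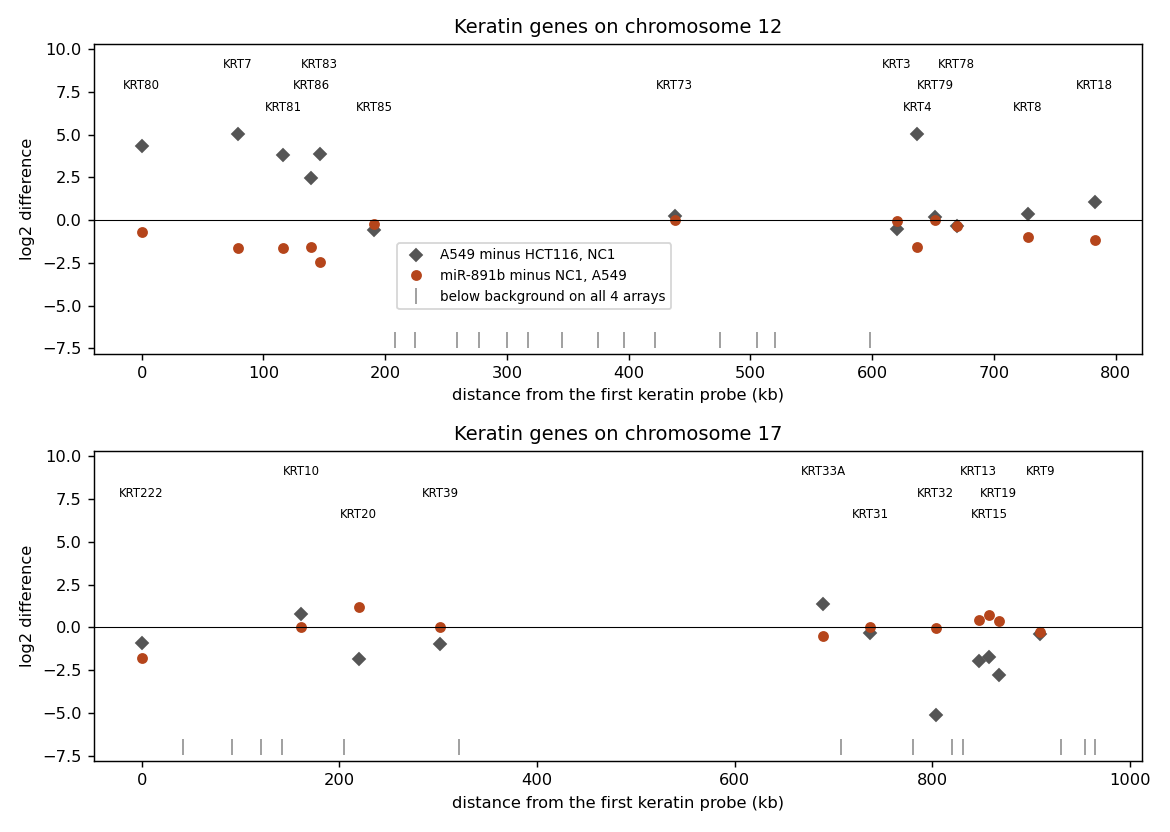
Log2 differences of measured keratins against the distance of their probe from the first keratin probe of the chromosome, for A549 minus HCT116 with NC1 (diamonds) and miR-891b minus NC1 in A549 (circles), which share the A549 NC1 array. Grey ticks are keratins not well above background on any array. KRT80, KRT7, KRT81, KRT86 and KRT83, at the left of chromosome 12, have diamonds from 2.44 to 5.02 and circles from -2.47 to -0.69, and a high A549 NC1 value moves both.

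Genes that work with keratins were taken from lists of desmosome, hemidesmosome, filament, cornified envelope, regulator and partner genes. Desmosomes anchor keratin filaments at cell contacts. Among 11 measured desmosome genes, A549 was 2-fold or more below HCT116 for 4 with NC1 and above it for none (16.2% and 11.1% of all genes), and limma called 4 lower and 0 higher (16.4% and 15.5% of all genes). DSC2, a desmosomal cadherin, and PPL, a plaque protein, had the lowest differences (-3.68 and -3.38), and PKP4 (-0.20) and JUP (-0.23) the smallest. With miR-891b, DSC2 was 3.73-fold higher in A549 and PPL was 2.06-fold lower in HCT116, and each spot lay in a stray area of at least 1 array. No other measured desmosome gene was past 2-fold with miR-891b in either line.

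Hemidesmosomes anchor keratins to the basement membrane. The A549 minus HCT116 difference with NC1 was 0.28 for DST, 0.17 for ITGA6, -0.49 for PLEC and -0.59 for ITGB4, and none of the 5 genes measured in both was past 2-fold. COL17A1 was 2.95-fold higher with miR-891b in HCT116, the 1 hemidesmosome gene of 6 past 2-fold there, and was not well above background in A549. Among the other intermediate filament genes, VIM, the mesenchymal filament, was at 1.1 and 1.76 in HCT116 and at 8.37 and 7.87 in A549. Its NC1 difference of 7.28 was the highest of the list, followed by SYNM (2.37), and NES (-3.38) and PRPH (-2.78) were the lowest. The limma model called 4 of 11 tested filament genes higher in A549 and 5 lower (15.5% and 16.4% of all genes). LMNB1, a nuclear lamin, was the only one of 11 measured in A549 past 2-fold with miR-891b, at 2.93-fold lower. Its spot lay in a stray area of at least 1 array, which may not be an A549 array.

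Cornified envelope genes mark the end of keratinocyte differentiation. Of 14 on the array, 4 were well above background on all 4 arrays, with NC1 differences of 0.41 for SPRR1A, 0.27 for SPRR2D, 0.22 for CNFN and -1.76 for TGM1. None of those measured was past 2-fold with miR-891b in either line. Of the regulators, ELF3 (1.62) and TFAP2A (1.17) had the highest A549 minus HCT116 differences with NC1, and CDX2 (-5.23) and GRHL1 (-2.68) the lowest. ELF3 was 2.0-fold lower with miR-891b in HCT116. In A549, KLF5 was 2.01-fold lower and HOXC13, a regulator of hair keratin genes, was 2.65-fold higher, from -0.08 to 1.33. In the list of keratin-binding partners, MACF1 (1.02) and TCHP (0.09) had the highest line differences, and SFN was at -1.74. None of 11 measured partners was past 2-fold with miR-891b in either line.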

How the data were processed

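Total RNA of 4 samples was hybridised to Agilent 1-colour arrays, and the samples were grouped by title. Per the file headers, Feature Extraction 11.5.1.1 subtracted background and spatial trends on every array, with hg19 probe coordinates. The deposited scanner files hold linear intensity values. The deposited table of the authors' processed log2 values, whose making is not given in the sources used here, differed from the values below by a median of 0.0069 or less per array, with column medians from -3.80 to -3.60.

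Outlier spots were dropped, log2 processed signals were averaged per probe, and the array's 75th percentile was subtracted. The probe of highest mean level stood for its gene. Well above background is Feature Extraction's mark. No gene spot was saturated. A stray area is one in which at least 10% of the spots dim on every other array, counted within 10 rows and columns, were well above background.

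The additive model used limma 3.58.1 in R 4.3.3, on genes well above background on at least 2 arrays. On simulated data for the line difference among 22713 genes, it called 0 of 40 genes at a log2 change of 2, 36 of 40 at 4, and 15 of 22513 unchanged ones. The simulation held no transfection effect and left most genes unchanged, while the data gave 7249 genes called by line. The adjusted cutoff therefore differs, and the simulated counts do not carry over to the data. Other values used Python 3.11.15. Keratins well above background on any array were named. Other lists were named by fold and line difference. The keratins, lists and rules were chosen with earlier results of these data known. The alternatives were 2 other normalizations, median scaling, the authors' values, no dim filter, the mean over probes, no stray areas and 2 other fold thresholds. The sequence of 1 keratin probe and the name of 1 list gene are not reported here.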

Additional observations from a re-analysis of the deposited data

Results flagged for a closer look

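KRT20, the gut keratin, went in opposite directions in the lines, each by more than 2 times the spot error. Its miR-891b minus NC1 difference was -0.59 in HCT116 and 1.18 in A549. With 1 array per group, no test of that contrast was possible, and it was not tested. Its level ran from -2.59 on A549 NC1 to -0.76 on HCT116 NC1, and after normexp background correction with quantile normalization the differences were -0.19 and 0.30.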

How the results depend on the processing

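No keratin named as past 2-fold reversed its direction under the alternatives run. With no filter on dim probes, 10 keratins were at least 2-fold higher and 1 lower with miR-891b in HCT116, 8 higher and 11 lower in A549, and 8 lower in A549 than in HCT116 with NC1, and the additive limma model called 1 for transfection (KRT34, whose NC1 values are below background). Normexp with quantile normalization gave 0 higher and 4 lower in A549 with miR-891b, and 3 lower in A549 than in HCT116 with NC1. At 1.5-fold there were 1 higher and 4 lower keratins in HCT116 and 2 higher in A549, and at 3-fold 0 higher and 4 lower in A549. The limma line count of 12 ran from 9 (normexp with quantile) to 16 (no dim filter). Median scaling moved the share of higher calls over all genes in A549 from 41.9% to 49.6%, and the share in HCT116 was 57.9%, against 71.1% after normexp with quantile, 50% after quantile normalization, 66.0% with no dim filter and 49.3% without stray areas. Without stray areas KRT10 and KRT81 had no value. With 1 array per group no replicate could be left out or serve as a block, and the additive model has the line as its block. Signal over background limits 27 keratins to no value.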
